A study of Homo sapiens with 18 samples.

Results

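Hep3B cells that had received free fatty acids (FFA) together with fucoxanthin (FUCO) at 2 μM, the group FUCO-2, were compared with the untreated control group, Con. Hep3B is an established human hepatoma line, so all libraries come from 1 line grown in culture. FUCO is a carotenoid of brown algae. The comparison was chosen by the library titles and holds 3 FUCO-2 and 3 Con libraries, 6 of the 18 libraries of the series. The FFA-induced Model group (FFA without FUCO) and FUCO-1 (FFA with the next lower dose) are used below only to divide the change into steps, and the FUCO-0.5 group and the Resmetirom group RES only share the estimate of the spread. FUCO-2 differs from Con by both FFA and FUCO. No group among the 18 libraries received FUCO without FFA, so an effect of FUCO that needs FFA and one that does not cannot be told apart. The carrier given to Con, the FFA concentration and the treatment times of these libraries are not given in the sources used here.

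Hepatocytes make cholesterol and fatty acids with enzymes whose genes are driven by the SREBP transcription factors, which are held back when sterols or unsaturated fatty acids are plentiful. The same cells answer fatty acids through PPARα, which raises genes of fat oxidation and of the lipid droplet coat. Separate stress pathways sense other insults: NRF2 responds to oxidants and electrophiles, HSF1 to unfolded cytosolic protein, MTF1 to free zinc and cadmium, and the unfolded protein response to the state of the endoplasmic reticulum (ER). NF-κB drives chemokine genes and also the genes of its own inhibitors.

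Polyadenylated RNA was sequenced, and the deposited values are raw read counts per gene symbol. The libraries held 17968042 to 19631852 counts in Con and 16916688 to 18631479 in FUCO-2. These totals are above the read number per sample that the study's methods state, so what 1 count stands for is not settled, and the counting intervals below take each count as 1 read. Of 36684 symbols, 14557 passed a filter on low counts and were tested. Levels are given below as CPM, read counts scaled to library size with TMM factors, which is not corrected for gene length. They are therefore compared only within a gene. Within Con, replicate 1 stood apart, with a chi-square per degree of freedom of 16.1 and 13.7 against the other Con libraries, which gave 2.34 against each other. Likewise FUCO-2 replicate 1 gave 20.0 and 19.3, against 5.91 between replicates 2 and 3. Of 15 hepatocyte markers, all 15 were measured, and 12 were lower in FUCO-2 and none higher. Their summed level lay at 80312 to 88988 CPM in Con and at 45535 to 50215 CPM in FUCO-2. Of 10 endothelial, 10 fibroblast or stellate and 10 leukocyte markers, 5, 3 and 3 were at 0 in all 6 libraries. Summed leukocyte markers were 5.14 to 7.17 CPM in Con and 14.1 to 16.5 CPM in FUCO-2, with LYZ, a lysozyme, the single member that passed the test, and fibroblast markers 33.2 to 48.4 and 24.8 to 30.1 CPM. The groups did not overlap in any of these 3 sums (exact permutation test over libraries, two-sided p = 0.1 for each, the smallest that 3 against 3 allow), and the part of these markers in the results below was not tested. Of the marker genes tested, 1 of 6 fibroblast genes was higher and 2 lower, 1 of 2 endothelial, 1 of 2 leukocyte and 1 of 7 cholangiocyte genes were higher, and 1 of 6 nuclear retained RNAs was higher and 1 lower, where 24.8% of all genes changed. The single fibroblast, endothelial, cholangiocyte and nuclear RNA rises (COL1A2, PECAM1, SOX9 and MEG3) each lost the call in at least 4 alternatives. In bulk RNA, fewer cells of a kind and less RNA per cell cannot be told apart.

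A gene is said to have changed, risen or fallen where its adjusted p was under 0.05. In FUCO-2, 3617 genes (24.8% of those tested) had changed against Con. Of these, 1886 (13.0% of the genes tested) were higher and 1731 (11.9%) lower. With an absolute log2 fold change over 1 as well, 461 were differentially expressed genes (DEGs), 263 (1.81%) higher and 198 (1.36%) lower. The ranges of the groups did not overlap for 4932 genes, or 33.9% of the genes tested. The median log2 fold change over all genes was 0.011. TMM scaling places this median near 0 by design, so a shift in total RNA per cell was not tested.

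**Figure D1:**
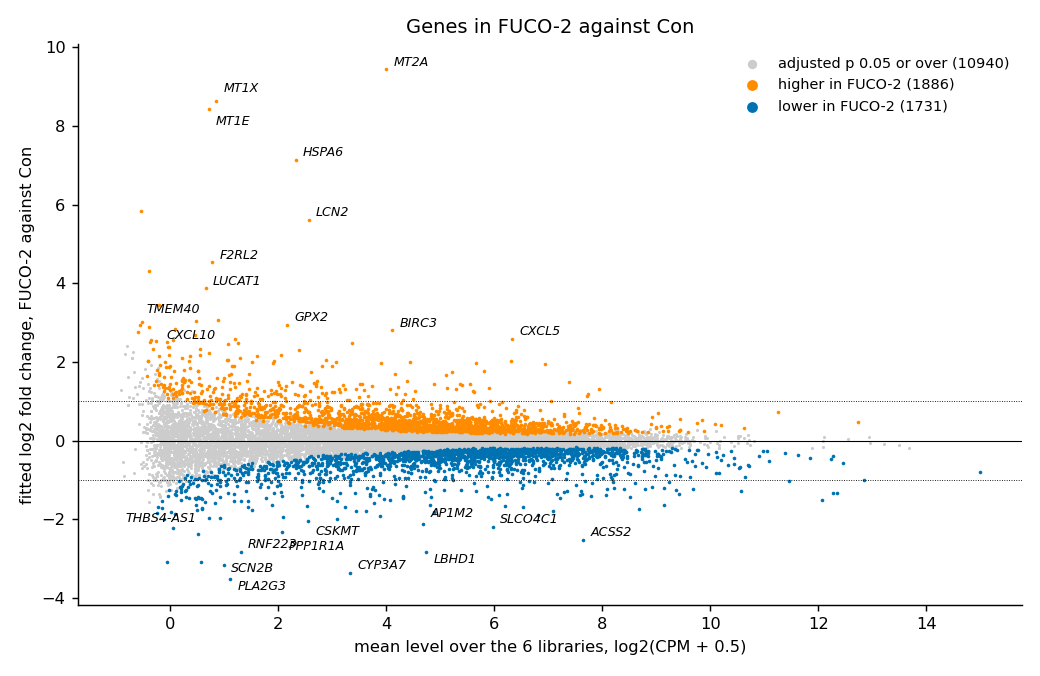
Fitted log2 fold change of each tested gene in FUCO-2 against Con (vertical axis) by its mean level over the 6 libraries as log2(CPM + 0.5) (horizontal axis); orange and blue points are genes with an adjusted p under 0.05, dotted lines mark a log2 fold change of 1 and −1, and most of the largest rises and falls within the naming limits carry their symbols. The 1886 higher and 1731 lower genes are near balance in number, while the fitted rises reach 9.44 (MT2A, with 2 control counts) and the falls −3.52.

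Among DEGs whose mean over the 6 libraries reached 1 CPM and whose groups did not overlap, the metallothioneins MT2A, MT1X and MT1E and the heat shock gene HSPA6, described below, had the highest fitted rises. Their fitted values rest on 0 to 3 control counts and set no order among them or against the genes that follow. LCN2, a secreted protein that binds bacterial iron carriers, was at 0.0578, 0.418 and 0.162 CPM in Con and at 10.5, 12.4 and 9.03 CPM in FUCO-2. All FUCO-2 libraries lay far above all Con libraries, and the log2 fold change was 5.62 (SE 0.41, adjusted p = 2.92e-10), or 6.50 without Con replicate 2, which held 7 counts against 1 and 3 in the other controls. F2RL2, a thrombin receptor (PAR3) that lies inside IQGAP2, rose by 4.53 (SE 0.48, adjusted p = 1.58e-07), the noncoding RNA LUCAT1 by 3.88 (SE 0.46, adjusted p = 8.26e-07) and TMEM40 by 3.06 (SE 0.36, adjusted p = 6.92e-07). Against the Model these last 3 were higher as well, by 3.07, 2.87 and 2.24 (adjusted p = 4.51e-06, 1.29e-05 and 1.92e-05), and their log2 fold changes from Con to Model were 1.46, 1.01 and 0.83 (adjusted p = 0.184, 0.337 and 0.248). GPX2, a glutathione peroxidase, rose from a range of 0.541 to 1.5 CPM to one of 5.18 to 9.32 CPM (log2 fold change 2.95, SE 0.27, adjusted p = 1.91e-08), and by 3.67 without replicate 1 of both groups. BIRC3, CXCL5 and CXCL10 fill the other places. Several genes named here and below overlap another annotated gene, which could share their reads, among them GPX2, CXCL10, TNFAIP3, SOD2, STARD4, TMEM97, CRYAB, HSPA4L, TXNRD1, SQSTM1, G0S2, TF, APOA1, NR0B2, ABCA1 and FN1.

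The falls that met the same limits began with PLA2G3, a secreted phospholipase, which fell by 3.52 in log2 units (SE 0.55, adjusted p = 3.79e-05). CYP3A7, the fetal liver form of the CYP3A drug-metabolizing enzymes, was at 11.0, 22.8 and 18.6 CPM in Con and at 2.13, 0.745 and 2.26 CPM in FUCO-2. That is a fall of 3.36 (SE 0.29, adjusted p = 5.81e-09), with reads that close paralogs and the overlapping ZSCAN25 could share. SCN2B, a sodium channel subunit, fell by 3.15 (SE 0.44, adjusted p = 1.06e-05), and RNF223 by 2.83 (SE 0.47, adjusted p = 8.36e-05), or by 3.72 without replicate 1 of both groups. LBHD1 and CSKMT, which overlap each other, fell by 2.84 and 2.03. The organic anion transporter SLCO4C1, the epithelial adaptor subunit AP1M2, the phosphatase inhibitor PPP1R1A and THBS4-AS1, which overlaps THBS4, fell by 2.19, 2.13, 2.32 and 1.98. AP1M2 was the most even of these, at 37.0, 42.3 and 43.9 CPM in Con, 16.5 ± 1.33 CPM in the Model (mean ± SD of 3 libraries, here and below) and 8.76, 9.53 and 9.89 CPM in FUCO-2. It was lower in FUCO-2 than in the Model too (log2 fold change −0.81, adjusted p = 1.54e-05).

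Genes of cholesterol synthesis and uptake fell as a block. All 24 members of this list were tested, all 24 were lower, none overlapped between the groups, and 15 were DEGs. Over all genes, 33.9% did not overlap and 1.36% were lower DEGs. The median log2 fold change was −1.06, against 0.011 over all genes and a share of 11.9% of all genes lower. STARD4, a cytosolic sterol carrier, had the largest fall, from 183, 244 and 229 CPM to 79.7, 76.3 and 84.1 CPM (log2 fold change −1.45, SE 0.10, adjusted p = 9.83e-11). MVD, which makes the isoprene unit isopentenyl diphosphate, fell by 1.44 (SE 0.11, adjusted p = 9.09e-10), the SREBP retention protein INSIG1 by 1.38 (SE 0.10, adjusted p = 3.08e-10) and lanosterol synthase, LSS, by 1.35 (SE 0.10, adjusted p = 8.84e-10). HMGCS1, the synthase that condenses acetyl-CoA units early in the pathway, stood at 1778, 2402 and 2275 CPM in Con and at 858, 901 and 926 CPM in FUCO-2, a fall of 1.27 (SE 0.10, adjusted p = 9.26e-10). The factor gene SREBF2 fell less, by 0.46 (SE 0.07, adjusted p = 4.77e-05). The smallest fall was 0.33, in PMVK.

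Both steps of the comparison carried this fall, though not for each gene alike. From Con to Model 22 of the 24 genes were lower (median −0.56), and from Model to FUCO-2 19 of 24 were lower still (median −0.44). Of all genes 9.12% were lower in the first step and 9.71% in the second. HMGCS1 fell by 0.56 in the first step (adjusted p = 0.000208) and by 0.70 in the second (adjusted p = 1.67e-05). The Model libraries enter both steps, so the steps are not independent of each other. HMGCS1 was chosen for its role after its values were seen.

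Fatty acid synthesis and desaturation followed, with 15 of 18 tested members lower, 1 higher and a median of −0.75, where 11.9% of all genes were lower. ACSS2, which turns acetate into acetyl-CoA, was at 189, 440 and 397 CPM in Con and at 62.0, 55.0 and 61.6 CPM in FUCO-2. Con replicate 1 was the lowest control by far, and still above every FUCO-2 library (log2 fold change −2.52, SE 0.18, adjusted p = 2.71e-10). SCD, the desaturase that makes oleate, fell from a range of 6203 to 7671 CPM to one of 2795 to 2882 CPM, by 1.33 (SE 0.09, adjusted p = 7.52e-11). TMEM97, the sigma-2 receptor, fell by 1.64 (SE 0.11, adjusted p = 9.83e-11). It is counted on this list but is a receptor and not an enzyme of synthesis or desaturation. ACLY, the citrate lyase, fell by 1.22 (SE 0.10, adjusted p = 3.40e-09), and FASN, the fatty acid synthase itself, by 1.02 (SE 0.12, adjusted p = 1.19e-06). The single member that rose was ME1, the cytosolic malic enzyme, which is also on the NRF2 list, by 0.92. SCD was lower than in the Model by a further 0.66 (adjusted p = 6.97e-06), while ACSS2 and ACLY were at about their Model level (log2 fold change −0.20 and −0.10, adjusted p = 0.463 and 0.533). Over the list, 12 members fell from Con to Model and 7 from Model to FUCO-2, where 9.12% and 9.71% of all genes fell.

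Lists of fat use and storage held members that rose and members that fell. Among 25 tested genes of fatty acid oxidation and PPARα action, 7 rose and 6 fell, with a median of 0.05. Over all genes 13.0% rose and 11.9% fell. Rises were seen in CREB3L3, a liver transcription factor of fasting (29.7, 17.6 and 18.3 CPM against 67.2, 45.6 and 66.7 CPM; log2 fold change 1.45, SE 0.17, adjusted p = 5.57e-07), in the lipase inhibitor ANGPTL4 (1.52, SE 0.30, adjusted p = 0.000535), and in CPT1A, which admits fatty acids to mitochondria (0.38, SE 0.07, adjusted p = 0.000419). The hormone FGF21 rose by 1.29, and by 1.91 without Con replicate 1, which was its highest control. CPT1A stood at 103 to 106 CPM in Con, at 179 ± 5.41 CPM in the Model and at 132 to 139 CPM in FUCO-2, so it was above Con and below the Model (log2 fold change against the Model −0.39, adjusted p = 0.000394). PLIN2, the main lipid droplet coat protein of hepatocytes, had the same order: 386 to 410 CPM in Con, 847 ± 40.5 CPM in the Model and 575, 725 and 634 CPM in FUCO-2 (log2 fold change 0.70 against Con, adjusted p = 5.06e-07, and −0.39 against the Model, adjusted p = 0.000938).

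On the storage and triglyceride list 3 of 21 rose and 3 fell, with a median of −0.0043 and with shares near those of all genes, and the risen count was 1 in a fit of the 6 libraries alone. GPAM, which attaches the first fatty acid to glycerol 3-phosphate, went from 43.8, 46.9 and 44.7 CPM to 12.3, 7.93 and 18.5 CPM, a fall of 1.81 (SE 0.18, adjusted p = 4.57e-08). LPIN1, the phosphatidate phosphatase, fell by 1.64 (SE 0.14, adjusted p = 6.34e-09). G0S2, the inhibitor of the lipase ATGL, had 2 control counts in all and 16 in FUCO-2, a ratio of 7.87 with a 95% counting interval of 1.85 to 70.5. Among 14 genes of fatty acid uptake and activation 2 rose, FABP5 and SLC27A2, and 4 fell, FABP1, ACSL3, ACSL4 and SLC27A3, with a median of 0.14. Over all genes 13.0% rose and 11.9% fell, so the risen share was near that of all genes. FABP1 fell from a range of 890 to 1266 CPM to one of 475 to 600 CPM (log2 fold change −0.91, SE 0.11, adjusted p = 9.49e-07). CD36, the fatty acid transporter the study follows, was at 2.95, 0.955 and 0.649 CPM in Con and 1.67, 1.49 and 2.37 CPM in FUCO-2, and the groups overlapped (log2 fold change 0.28, SE 0.36, adjusted p = 0.618). Con replicate 1 decides this value: without it CD36 was higher in FUCO-2 by 1.21 (adjusted p = 0.0084), and without Con replicate 3 the estimate was −0.09. The paper reports that FUCO lowered CD36 in FFA-treated cells. FUCO-2 against Con is a different comparison and does not test that.

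**Figure D2:**
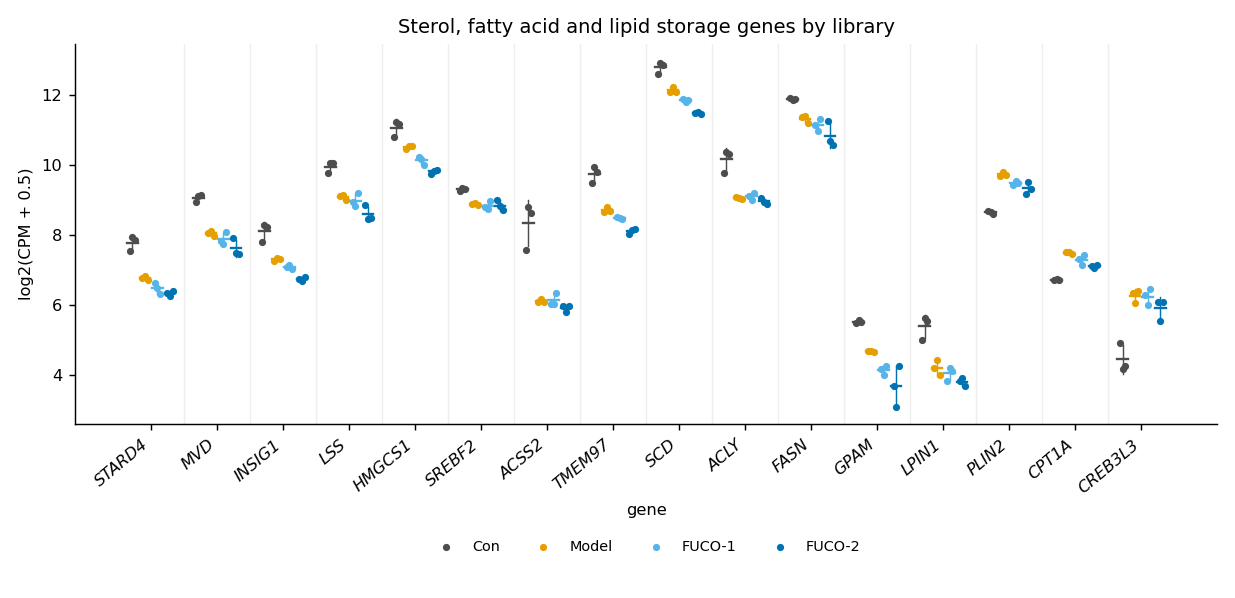
Levels of 16 lipid genes as log2(CPM + 0.5) (vertical axis) in Con, Model, FUCO-1 and FUCO-2; each point is 1 library, the horizontal line the mean of 3 libraries and the vertical line ± SD. Sterol and lipogenic genes are at their highest in Con, while PLIN2, CPT1A and CREB3L3 are at their lowest there; HMGCS1 steps down from Con (1778 to 2402 CPM) to FUCO-2 (858 to 926 CPM).

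Genes of metal binding and zinc export were higher in FUCO-2, the metallothioneins from at or near 0 control counts. Metallothioneins are small cysteine-rich proteins that hold zinc and copper, and SLC30A1 exports zinc from the cell. MT2A had 1, 0 and 1 counts in the Con libraries and 530, 807 and 339 in FUCO-2. After scaling this is a ratio of 824 with a 95% interval of 228 to 6809, which covers counting error only. MT1X and MT1E had no control count, and 142 and 124 in FUCO-2 over the 3 libraries, so they were at least 15.4-fold and 13.4-fold higher, against a floor of 3 counts per library. Fitted log2 fold changes had adjusted p-values of 5.40e-12, 1.27e-08 and 1.91e-06. SLC30A1 rose from 13.0, 19.6 and 18.1 CPM to 59.2, 65.4 and 46.7 CPM (log2 fold change 1.76, SE 0.15, adjusted p = 3.34e-09). Of 18 genes on this list 8 were tested. MT2A, MT1X and MT1E passed the filter only through the groups where they are high, so the count of 4 risen members is no support for the list. With at least 10 counts in every library 1 member rose and the median was 0.03 in place of 0.92. The zinc importer SLC39A10 fell by 0.27 (adjusted p = 0.0319). Near-identical metallothionein paralogs could share reads. MT2A was at 0.808 ± 0.324 CPM in the Model, a fitted 4.18 above its 2 control counts (adjusted p = 0.00936), and higher in FUCO-2 than in the Model by 5.26 (adjusted p = 2.05e-10). SLC30A1, at 17.1 ± 1.29 CPM in the Model, was higher in FUCO-2 by 1.74 (adjusted p = 1.43e-08). In FUCO-1 MT2A stood at 4.72 ± 2.01 CPM, and FUCO-2 was higher by 2.72 (adjusted p = 2.15e-07).

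The stretches just before the MT2A and MT1X starts are shown since they hold several copies of the metal response element core, the letters read by MTF1. They are RefSeq promoter sequences of GRCh38.p14, chr16:56608409-56608583 and chr16:56682315-56682469, both on the plus strand and ending at the base before the gene start. Capitals mark TGCACNC or TGCGCNC on either strand.
MT2A: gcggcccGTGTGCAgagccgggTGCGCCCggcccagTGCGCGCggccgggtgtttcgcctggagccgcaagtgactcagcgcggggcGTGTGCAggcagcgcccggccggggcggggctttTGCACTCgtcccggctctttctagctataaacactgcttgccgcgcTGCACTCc
MT1X: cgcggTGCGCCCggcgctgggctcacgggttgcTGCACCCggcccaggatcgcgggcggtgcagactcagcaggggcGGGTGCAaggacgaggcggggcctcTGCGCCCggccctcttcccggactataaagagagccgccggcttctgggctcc
The MT2A stretch holds 6 matches and the MT1X stretch 4. In windows of 250 bases before the start, 7 of the 10 metal genes with a promoter entry had at least 1 match, and so did 24.7% of all 27305 promoters. Of these 10 genes 6 were tested in these data, and 3 of the 6 had a match. This short core is common, so a match is a description of the letters and not a site.

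Heat shock genes and cochaperones rose together, 18 of 24 tested higher and none lower, with a median of 0.38. Of all genes 13.0% were higher and 11.9% lower. The list includes HSPA6, which passed the filter only through the groups where it is high. With at least 10 counts in every library, 16 members rose and the median was 0.375. HSPA6, an HSP70 that is nearly silent in unstressed cells, had 1, 0 and 2 counts in Con and 169, 203 and 112 in FUCO-2, a ratio of 159 with an interval of 54.0 to 772 (adjusted p = 1.56e-12). Its fitted change was 3.30 from Con to Model (adjusted p = 0.000619) and 3.84 from Model to FUCO-2 (adjusted p = 2.05e-10). It shares sequence with other HSP70 genes. The inducible HSPA1A went from 4.57, 3.64 and 3.46 CPM to 8.24, 9.0 and 7.98 CPM (log2 fold change 1.11, SE 0.14, adjusted p = 2.05e-06), HSPA4L rose by 1.13 (SE 0.12, adjusted p = 3.00e-07), and the small heat shock gene CRYAB by 2.38 (SE 0.56, adjusted p = 0.00284) at levels of about 1 CPM or below. HSP90AA1, an inducible HSP90, rose from a range of 884 to 958 CPM to one of 1113 to 1407 CPM (log2 fold change 0.42, SE 0.09, adjusted p = 0.000795). The mitochondrial chaperonin HSPD1 rose by 0.40 (SE 0.08, adjusted p = 0.000476). In the first step, from Con to Model, 4 members rose and 2 fell (median −0.06), where 8.43% of all genes were higher and 9.12% lower. From Model to FUCO-2 19 rose and none fell (median 0.49), where 10.8% of all genes were higher and 9.71% lower. HSPA1A was at 3.88 ± 0.392 CPM in the Model, about its control level, and higher in FUCO-2 by 1.12 (adjusted p = 4.14e-06).

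The HSPA6 and HSPA1A promoters are shown for the paired GAA and TTC units of the heat shock element, written GAANNTTC on both strands, in capitals. The positions in GRCh38.p14 (RefSeq) are chr1:161524350-161524539 and chr6:31815428-31815542, plus strand.
HSPA6: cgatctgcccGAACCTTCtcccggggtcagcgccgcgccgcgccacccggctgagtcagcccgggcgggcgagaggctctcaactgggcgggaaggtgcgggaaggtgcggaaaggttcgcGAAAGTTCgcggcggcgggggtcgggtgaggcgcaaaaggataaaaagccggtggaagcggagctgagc
HSPA1A: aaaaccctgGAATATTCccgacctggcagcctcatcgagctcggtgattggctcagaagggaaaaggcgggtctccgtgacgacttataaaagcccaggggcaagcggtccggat
HSPA6 has 2 matches, 180 and 69 bases before its start, and HSPA1A 1, at 106 bases. Of 23 genes of the list with a promoter entry, 10 had a match within 250 bases, against 5.85% of all promoters, and of the 21 that were tested 8 had one. Since the list was made of heat shock genes, this share describes the letters and is no result of these data.

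Targets of NRF2 rose in 23 of 29 cases, with 1 lower, PGD, and a median of 0.51, where 13.0% of all genes were higher. With at least 10 counts in every library, 21 members rose and the median was 0.49. HMOX1, which degrades heme, was at 24.4, 17.6 and 18.7 CPM in Con and at 81.9, 94.8 and 62.4 CPM in FUCO-2 (log2 fold change 1.98, SE 0.14, adjusted p = 2.50e-10). Every FUCO-2 library lay far above the highest control. Both subunits of the enzyme that starts glutathione synthesis were higher, GCLM by 1.45 (SE 0.15, adjusted p = 1.04e-07) and GCLC by 0.93 (SE 0.09, adjusted p = 5.18e-08). TXNRD1, thioredoxin reductase, rose by 0.98 (SE 0.10, adjusted p = 1.38e-07), SRXN1, which repairs peroxiredoxins, by 1.36 (SE 0.24, adjusted p = 0.000134), and NQO1, the quinone reductase, by 1.18 (SE 0.18, adjusted p = 3.36e-05). The aldo-keto reductases AKR1B10 and AKR1C2 rose by 2.46 and 2.12, or by 3.57 and 3.08 without Con replicate 1, their highest control library, and AKR1C2 lost its call with DESeq2 on the 6 libraries (adjusted p = 0.0777). Con replicate 1 was in fact above the other controls for HMOX1, GCLM, TXNRD1, SRXN1 and AKR1B10, and remained below all FUCO-2 libraries for each. From Con to Model 5 members rose and 2 fell, where 8.43% of all genes were higher and 9.12% lower. From Model to FUCO-2 20 rose and none fell, where 10.8% of all genes were higher and 9.71% lower. HMOX1 was at 23.7 ± 1.71 CPM in the Model (log2 fold change of FUCO-2 against it 1.75, adjusted p = 5.67e-09). The letters TGACNNNGC of the antioxidant response element core were in 4 of 20 promoters of the list and in 11.0% of all. The list was made of known NRF2 targets, so this share is a description only. Beside these, the autophagy receptor SQSTM1 rose by 1.14 (SE 0.12, adjusted p = 2.47e-07) and the neuronal ubiquitin hydrolase UCHL1 by 1.26 (SE 0.16, adjusted p = 3.46e-06), on a proteasome and ubiquitin list with 5 of 24 higher and 1 lower. The higher count was 2 without Con replicate 2, Con replicate 3 or FUCO-2 replicate 2, 3 without FUCO-2 replicate 3 and 8 without Con replicate 1, against 13.0% of all genes higher.

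ER genes went the other way. Of 24 tested genes for ER chaperones and the unfolded protein response, 13 were lower and 2 higher, with a median of −0.21. Over all genes 11.9% were lower and 13.0% higher. MANF, a secreted protein of the ER stress response, fell from 61.4, 72.3 and 73.0 CPM to 40.1, 37.9 and 39.1 CPM (log2 fold change −0.82, SE 0.09, adjusted p = 1.38e-07), DNAJB9 by 0.65 (SE 0.10, adjusted p = 1.81e-05) and EDEM1, of ER degradation, by 0.37 (SE 0.07, adjusted p = 0.000285). The sensor ERN1 rose by 0.39 (SE 0.08, adjusted p = 0.000936). HSPA5, the main ER chaperone (BiP), gave −0.19 on the log2 scale against Con (adjusted p = 0.063, SE 0.07), after 0.55 from Con to Model (adjusted p = 1.16e-05) and −0.74 from Model to FUCO-2 (adjusted p = 2.21e-07). Over the list, 11 members rose and 2 fell in the first step, and 2 rose and 20 fell in the second. Of all genes 8.43% rose and 9.12% fell in the first step, and 10.8% rose and 9.71% fell in the second. The count of 13 rests on the spread of all groups: it was 6 in a fit of the 6 libraries alone, and 8 without Con replicate 2 or without Con replicate 3. The ATF4 list showed no common direction, with 5 of 28 higher and 6 lower (3 without Con replicate 1) and a median of −0.01. STC2 rose by 0.61 (SE 0.09, adjusted p = 3.06e-05) and the amino acid transporter SLC7A5 by 0.52 (SE 0.12, adjusted p = 0.00255), whereas ATF4 itself fell by 0.35 (SE 0.06, adjusted p = 0.000217) and ATF3 by 0.49 (adjusted p = 0.00503), the last with an adjusted p of 0.0505 without Con replicate 1.

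**Figure D3:**
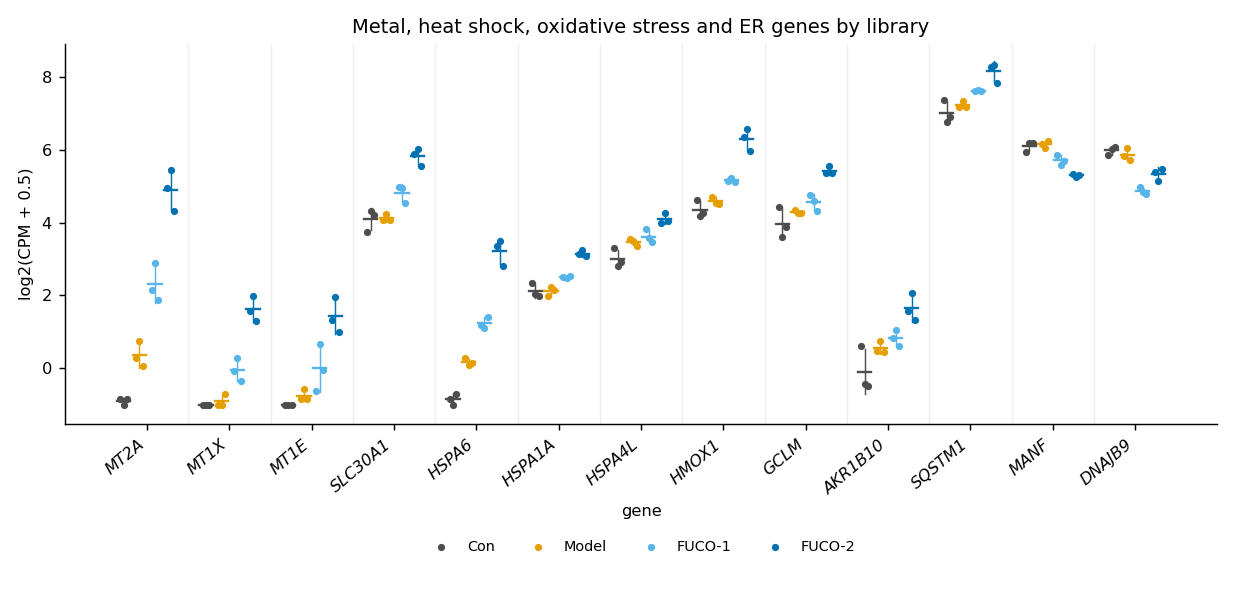
Levels of 13 stress genes as log2(CPM + 0.5) (vertical axis) in Con, Model, FUCO-1 and FUCO-2; points are libraries, horizontal lines means of 3 libraries and vertical lines ± SD. Metallothionein, SLC30A1, HSP70 and HMOX1 levels climb from FUCO-1 to FUCO-2 (MT2A from 4.72 to 31.0 CPM on average), while MANF is lowest in FUCO-2.

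Chemokine and NF-κB feedback genes rose in 20 of 21 cases, with a median of 1.26, the highest of the lists described here. Over all genes 13.0% were higher. BIRC3, an inhibitor of apoptosis that NF-κB induces, was at 4.28, 3.46 and 4.81 CPM in Con and at 23.7, 41.6 and 23.1 CPM in FUCO-2 (log2 fold change 2.81, SE 0.25, adjusted p = 8.38e-09). The neutrophil chemokine CXCL5 went from 26.1, 20.6 and 21.3 CPM to 131, 158 and 122 CPM (2.60, SE 0.20, adjusted p = 6.95e-10). CXCL10, which draws T cells, rose by 2.58 (SE 0.34, adjusted p = 4.40e-06), or by 3.22 without replicate 1 of both groups. CXCL8, interleukin-8, stood at 70.3, 43.6 and 37.4 CPM in Con and at 122, 341 and 125 CPM in FUCO-2 (1.96, SE 0.31, adjusted p = 3.67e-05). FUCO-2 replicate 2 was the highest library for all of these, and 1 library set part of the size: without it CXCL8 rose by 1.29 (adjusted p = 0.000336), CXCL3 by 1.60 in place of 2.49 and TNFAIP3, the feedback inhibitor A20, by 0.56 in place of 1.26 (adjusted p = 0.00289). These 3 calls held without it, while TNFAIP3 lost its call with DESeq2 on the 6 libraries (adjusted p = 0.108). SOD2, the mitochondrial superoxide dismutase, was even, at 136 to 143 CPM in Con and 326 to 395 CPM in FUCO-2 (1.32, SE 0.09, adjusted p = 1.22e-10). The exception was IL1A, which fell by 1.13 (SE 0.30, adjusted p = 0.00704), with an adjusted p of 0.0694 without Con replicate 2 and 0.0557 with DESeq2 on the 6 libraries. TNF, IL6, IL1B, CCL2, CCL5 and CXCL11 did not pass the filter on low counts.

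Most of this rise was present in the Model. There 16 of the 21 exceeded Con (median 1.01), where 8.43% of all genes were higher and 9.12% lower. Against the Model, 8 were higher in FUCO-2 and none lower (median 0.07), where 10.8% of all genes were higher and 9.71% lower. BIRC3 was among the 8 (0.98, adjusted p = 0.00178). For CXCL8 and CXCL1 the difference from the Model was −0.34 in both, with an SE of 0.29 and 0.24 and an adjusted p of 0.439 and 0.355.

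The promoters of 3 of these chemokines are shown for the κB letters GGANTTTCC, which stand in capitals at a similar distance before each start. The sequences are from RefSeq, GRCh38.p14: CXCL8 at chr4:73740469-73740568 and CXCL1 at chr4:73869293-73869392 on the plus strand, and CXCL5 at chr4:73998678-73998777 on the minus strand.
CXCL8: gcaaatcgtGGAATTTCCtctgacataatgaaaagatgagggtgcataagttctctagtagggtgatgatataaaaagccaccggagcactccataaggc
CXCL5: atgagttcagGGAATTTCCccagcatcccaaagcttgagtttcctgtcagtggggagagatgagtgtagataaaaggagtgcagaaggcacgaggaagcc
CXCL1: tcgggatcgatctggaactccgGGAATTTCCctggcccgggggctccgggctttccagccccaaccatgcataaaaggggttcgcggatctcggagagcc
The match begins 91, 90 and 78 bases before the start. Of 23 list genes with a promoter entry, 15 held these letters on either strand within 250 bases, against 1.47% of all promoters, and of the 19 that were tested 13 held them. The list was made of NF-κB driven genes, so a high share was likely from the outset and is no result of these data. The sterol regulatory letters TCACNCCAC, in contrast, were in 1 of 18 promoters of the cholesterol list, that of SREBF2, and in 0.875% of all. That says only that these letters are not in those windows.

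Of 15 interferon-stimulated genes tested, 4 rose (2 without Con replicate 2) and none fell, with a median of 0.33. Over all genes 13.0% rose and 11.9% fell. BST2 rose by 2.50 (SE 0.46, adjusted p = 0.000227) from under 0.25 CPM, and by 3.12 without Con replicate 1. OAS3 and IRF1 rose by 0.87 and 0.58, each with the call lost in at least 1 alternative.

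Genes for proteins that hepatocytes secrete were lower. Among 18 albumin family and apolipoprotein genes 12 fell and none rose (median −0.49), and among 24 coagulation and complement genes 14 fell and none rose (median −0.43). The complement gene C3, which rose, was placed on the acute phase list below and is not in the latter count. Over all genes 11.9% fell and 13.0% rose. ALB was at 39375, 43307 and 40258 CPM in Con, 33912 ± 334 CPM in the Model and 21943, 23701 and 25696 CPM in FUCO-2, a fall of 0.79 against Con (SE 0.09, adjusted p = 3.69e-07). Its reads made up 3.72% to 4.04% of all counts in Con and 2.22% to 2.63% in FUCO-2. AFP, the fetal counterpart of albumin, fell from a range of 6051 to 6672 CPM to one of 1982 to 2464 CPM (log2 fold change −1.51, SE 0.14, adjusted p = 1.93e-08). AHSG, fetuin-A, fell by 0.99 (SE 0.10, adjusted p = 4.12e-08), the kininogen gene KNG1 by 0.90 (SE 0.10, adjusted p = 4.90e-07), vitronectin, VTN, by 0.87 (SE 0.09, adjusted p = 2.71e-07), and APOA1 and APOB, of HDL and LDL, by 0.64 and 0.57 (adjusted p = 0.000818 and 6.81e-06). TF, transferrin, fell by 1.33 (SE 0.13, adjusted p = 6.68e-08). ALB, AFP, AHSG, APOA1, APOB and TF, and FGB and FGG below, are also among the hepatocyte markers above, so these counts share genes.

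Of 13 acute phase genes tested 7 fell and 2 rose, LCN2 and the complement gene C3, where 11.9% of all genes were lower and 13.0% higher. C3 rose from 1800 to 1885 CPM in Con to 2816 to 3280 CPM in FUCO-2 (log2 fold change 0.74, SE 0.08, adjusted p = 5.57e-07). LCN2, under 10 counts in every Con library, passed the filter only through the groups where it is high, so its rise is no support for the list. With at least 10 counts in every library 7 members fell and the median was −0.72 in place of −0.40. The fibrinogen chains led the falls: FGB went from 123, 150 and 151 CPM to 46.6, 36.1 and 49.5 CPM (log2 fold change −1.68, SE 0.11, adjusted p = 1.22e-10), and FGG fell by 1.39 (SE 0.12, adjusted p = 1.03e-08). The heme binder HPX fell by 1.46 (SE 0.14, adjusted p = 5.37e-08). For FGB most of the fall lay after the Model, −0.34 in the first step (adjusted p = 0.0317) and −1.34 in the second (adjusted p = 1.48e-08).

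Of the 19 hepatocyte transcription factor genes tested 9 fell and none rose, by modest sizes. For this and the next 2 lists the shares of all genes are 13.0% higher and 11.9% lower. NR0B2 (SHP), a target of the bile acid receptor, fell by 1.03 (SE 0.10, adjusted p = 3.59e-08), that receptor, NR1H4 (FXR), by 0.56 (SE 0.10, adjusted p = 0.000152), ONECUT1 by 0.41 (SE 0.08, adjusted p = 0.000325), and CEBPA by 0.54 (SE 0.14, adjusted p = 0.00535), from 234 to 253 CPM to 128 to 218 CPM. On the bile acid and LXR list 8 of 16 fell (5 in a fit of the 6 libraries alone), among them the cholesterol exporter ABCA1, by 0.75 (SE 0.09, adjusted p = 6.20e-07). NR0B2 and NR1H4 are on both lists and counted in each. BAAT, which conjugates bile acids, fell by 0.86 (adjusted p = 0.019), but by 0.28 (adjusted p = 0.342) without Con replicate 1. Among 17 cytochrome and AHR genes 4 rose, 1 fell and 12 did not pass the test (median 0.03), and without Con replicate 3 the risen were 2. CYP1A1 rose by 1.99 (SE 0.29, adjusted p = 1.27e-05), or 2.77 without Con replicate 1, and AHRR, the repressor that AHR induces, by 2.24 (SE 0.39, adjusted p = 0.000128). AHRR overlaps PDCD6-AHRR.

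**Figure D4:**
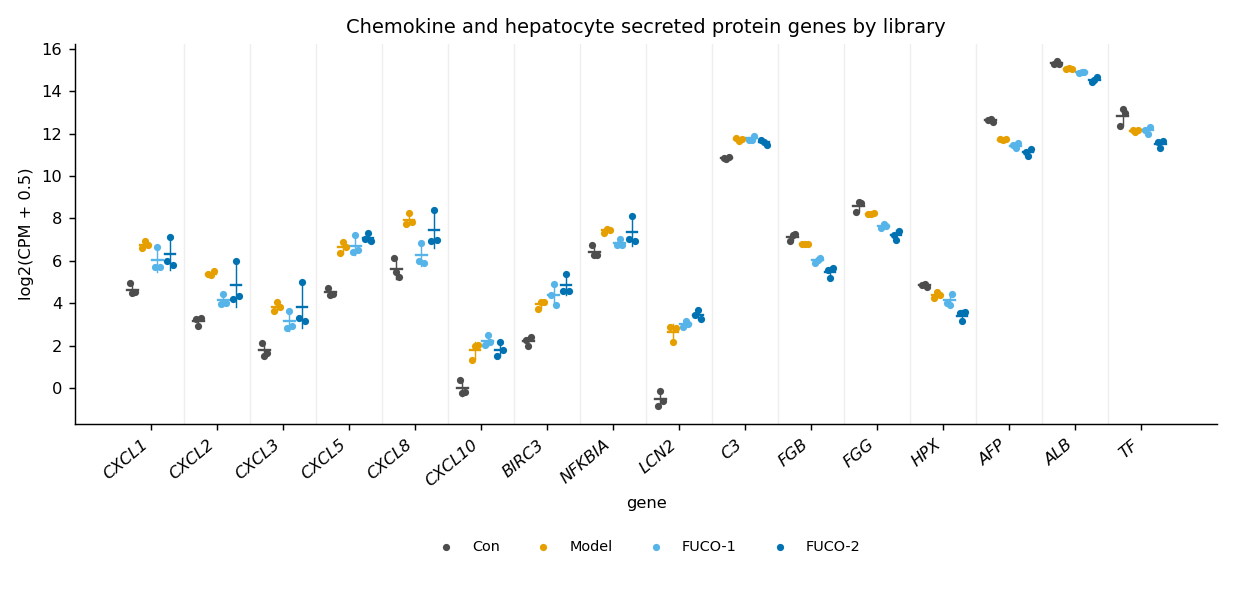
Levels of 16 chemokine, acute phase and secreted protein genes as log2(CPM + 0.5) (vertical axis) in Con, Model, FUCO-1 and FUCO-2; points are libraries, horizontal lines means of 3 libraries and vertical lines ± SD. For CXCL1, CXCL2, CXCL3 and CXCL8 1 FUCO-2 library (replicate 2) lies above the other FUCO-2 libraries, and AFP, ALB, FGB and FGG are lowest in FUCO-2 (ALB 21943 to 25696 CPM).

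Among the signalling lists, the BMP and ID list had 7 of 14 lower and none higher, with a median of −0.45 (4 lower with DESeq2 on the 6 libraries): HES1, a Notch and BMP target, from 205, 225 and 237 CPM to 102, 72.5 and 97.6 CPM (log2 fold change −1.30, SE 0.13, adjusted p = 6.55e-08), ID4 by 1.54 (SE 0.20, adjusted p = 3.59e-06) and ID1 by 1.28 (SE 0.24, adjusted p = 0.000304), the last with overlapping groups and a fall of 1.94 without replicate 1 of both, and an adjusted p of 0.0509 with DESeq2 on the 6 libraries. For every list in this paragraph, the shares of all genes to set beside the counts are 13.0% higher and 11.9% lower. Among TGFβ targets 8 of 20 fell and 2 rose, with FST, the activin antagonist follistatin, down by 1.92 (SE 0.16, adjusted p = 3.41e-09) and fibronectin, FN1, by 0.63 (SE 0.07, adjusted p = 5.59e-07). FOXO and insulin-responsive genes fell in 11 of 19 cases and rose in 1, PDK4, which restrains pyruvate oxidation (0.90, SE 0.13, adjusted p = 1.35e-05), with a median of −0.40. CITED2 and the glucocorticoid-induced TSC22D3 fell by 0.94 and 0.91 (adjusted p = 2.71e-07 and 4.73e-06). The count of 11 was 7 in a fit of the 6 libraries alone and 7 without Con replicate 3. On the TXNIP and arrestin domain list 4 of 8 fell (2 with DESeq2 on the 6 libraries) and 1 rose. TXNIP, the glucose-responsive thioredoxin binder, was at 7.28, 28.2 and 24.0 CPM in Con and at 6.68, 3.73 and 9.49 CPM in FUCO-2. Its Con replicate 1 lay inside the FUCO-2 range (log2 fold change −1.59, SE 0.32, adjusted p = 0.000645), and with DESeq2 on the 6 libraries its adjusted p was 0.0825. YAP targets rose in 7 of 20 cases and fell in none (median 0.14), led by FJX1 (1.69, SE 0.24, adjusted p = 1.13e-05) and MYOF (1.42, SE 0.23, adjusted p = 6.98e-05). In the p53 and growth arrest list 6 of 20 fell, among them PLK2 by 1.25 (SE 0.15, adjusted p = 1.18e-06) and CDKN1A (p21) by 0.73 (SE 0.15, adjusted p = 0.000818), and 2 rose. Of 32 replication and mitosis genes 6 rose and 1 fell, where 13.0% of all genes were higher and 11.9% lower, and 2 rose without Con replicate 2 or without Con replicate 3. The largest rise was that of BUB1B, by 0.50 (SE 0.07, adjusted p = 1.99e-05). Hypoxia and glycolysis genes (6 higher and 5 lower of 27, with 2 higher without Con replicate 2 and 3 without Con replicate 3) and urea cycle and amino acid genes (1 higher and 5 lower of 20) had no common direction, and 3 of 13 mitochondrially encoded genes fell, by at most 0.37 (ND1, adjusted p = 0.00885).

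The genes the study itself names were chosen by it from these samples or from assays of the same cells, so their directions are not independent evidence. Of 15 tested, 8 fell and 2 rose, PLIN2 and CPT1A, where 11.9% of all genes were lower and 13.0% higher. EGR2, an immediate early factor, was at 3.93, 2.45 and 2.22 CPM in Con, 7.07 ± 1.31 CPM in the Model and 1.44, 1.28 and 2.03 CPM in FUCO-2. It was thus lower than Con by 0.86 (SE 0.26, adjusted p = 0.0176), and lower than the Model by 2.16 (adjusted p = 4.88e-07). The call against Con was not stable. Without Con replicate 1 the fall was 0.56 (adjusted p = 0.139), and without replicate 1 of both groups 0.50 (adjusted p = 0.233). On the 6 libraries alone the adjusted p was 0.0655 with DESeq2 and 0.058 with edgeR. It was 0.0501 without FUCO-2 replicate 1 and 0.0869 without FUCO-2 replicate 2. CCN2 and NR4A1 were near the control: CCN2 was at 325 to 331 CPM in Con and 320 to 362 CPM in FUCO-2 (log2 fold change 0.07, SE 0.09, adjusted p = 0.601), and NR4A1 at 30.6 to 36.5 and 22.6 to 39.1 CPM (−0.15, SE 0.16, adjusted p = 0.543). Both groups of values overlapped. In the Model these genes stood at 775 ± 30.9 and 67.2 ± 2.26 CPM. SREBF1 and ACACA fell by 0.62 and 0.43 (adjusted p = 0.00021 and 0.00171), and DGAT2 and ACSL1 gave 0.28 and 0.13 (adjusted p = 0.213 and 0.333). Other immediate early genes moved both ways, 4 of 29 higher and 9 lower (5 without FUCO-2 replicate 2), with FOSL1 at 0.776 to 1.14 CPM in Con and 2.95 to 4.84 CPM in FUCO-2 (log2 fold change 2.16, SE 0.33, adjusted p = 2.62e-05) and KLF2 down by 1.43 (SE 0.19, adjusted p = 3.86e-06).

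**Figure D5:**
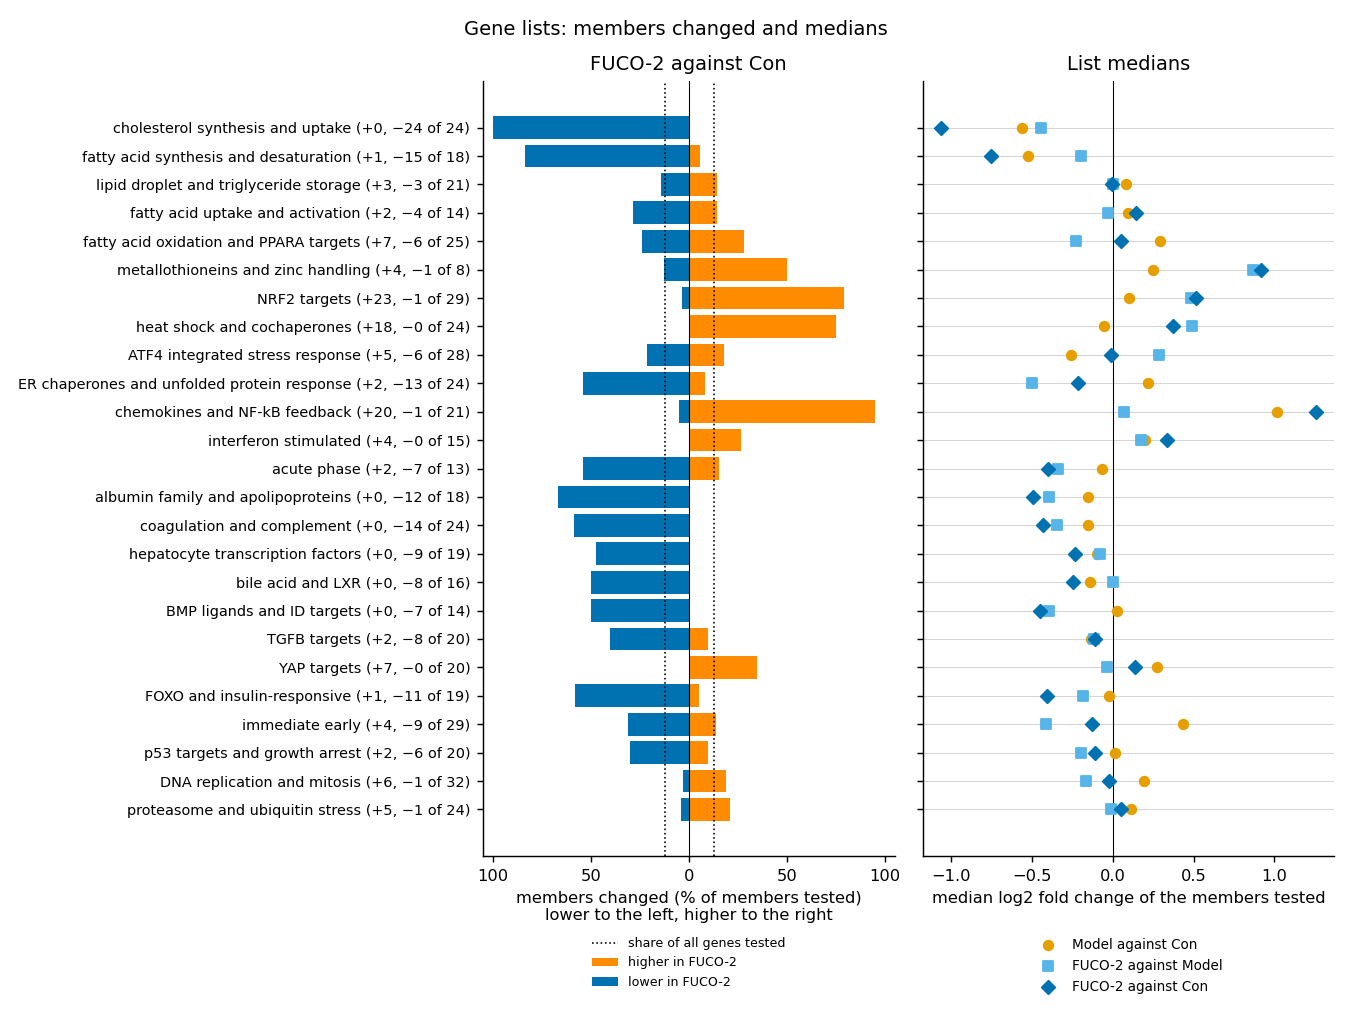
Left, the share of tested members of 25 gene lists that were higher (orange, right) or lower (blue, left) in FUCO-2 against Con, with dotted lines at the shares of all genes tested (13.0% and 11.9%) and the counts beside each name. Right, the median log2 fold change of each list from Con to Model, from Model to FUCO-2 and from Con to FUCO-2, with the chemokine list at 1.01, 0.07 and 1.26 and the heat shock list at −0.06, 0.49 and 0.38.

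Read step by step, the lists fell into sets. Of the 21 chemokine and NF-kB feedback genes tested, 16 rose in the first step and 8 in the second. Sterol genes fell in both steps. Of 24 heat shock genes 4 rose and 2 fell in the first step and 19 rose in the second. Of 29 NRF2 genes 5 rose and 2 fell and then 20 rose. The 8 metal genes gave 2 rises in the first step, MT2A among them, and 4 rises and 1 fall in the second. MT2A, MT1X and MT1E passed the filter only through the groups where they are high, so these counts are no support for the list. Of all genes tested, 8.43% rose and 9.12% fell in the first step, and 10.8% rose and 9.71% fell in the second. ER chaperones and immediate early genes rose in the first and fell in the second (immediate early medians 0.43 and −0.41), and secreted hepatocyte proteins fell mainly in the second (medians −0.15 and −0.39 for the albumin family list). Each step was tested on its own, and the steps share the Model libraries, so no test of one step against the other is given. Against FUCO-1, where 4.07% of all genes were higher in FUCO-2 and 2.23% lower, 16 of 24 heat shock genes and 10 of 29 NRF2 genes were higher and none lower, 10 of 24 cholesterol genes were lower and none higher, and 22 of 29 immediate early genes were higher and none lower. HSPA6 rose from 1.86 ± 0.275 CPM in FUCO-1 to 9.01 ± 2.25 CPM (log2 fold change 2.28, adjusted p = 2.06e-07), and HMOX1 was higher by 1.17 (adjusted p = 8.40e-06). ATF3, lower than Con in FUCO-2, was nonetheless higher than in FUCO-1 by 1.21 (adjusted p = 3.74e-06), and on the ATF4 list 20 of 28 genes were higher than in FUCO-1 and none lower.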

How the data were processed

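Counts per gene of 18 Hep3B libraries were used, 3 in each of 6 groups, with groups and replicate numbers read from the titles. The deposited counts were made by the authors: reads were trimmed (fastp), aligned to GRCh38.p14 (STAR) and summed per gene (featureCounts), with no normalization. The paper's methods state DESeq2 for testing, biological replicates and a single sequencing run, but not whether counting used the strand, so overlapping genes and close paralogs are uncertain. Here edgeR 4.0.16 in R 4.3.3 was used (filterByExpr, TMM and a quasi-likelihood model with a term for each of the 6 groups, prior count 0.125), with Benjamini-Hochberg adjusted p over 14557 genes. SE was the log2 fold change over the root of F. The fit was tested on simulated counts.

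The 37 gene lists and the comparison were chosen with earlier results of these data known. Genes named singly were the 12 largest rises and 12 largest falls among DEGs that averaged 1 CPM or more and did not overlap (LOC symbols left out), up to 4 changed members per list, and genes the study names, some of which are not reported here. Besides these, 20 genes were named for their roles after their values were seen, among them HMGCS1, NQO1, HSPA5, CXCL8, SOD2, C3 and APOB. Alternatives were DESeq2 1.42.0, the 6 libraries alone, RLE factors, other filters, a prior count of 2, glmTreat, a replicate block and leaving out libraries. Promoters were RefSeq sequences of GRCh38.p14, checked against the genome. Reads carry no molecular identifiers, so counting intervals cover counting error only.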

Additional observations from a re-analysis of the deposited data

How the results depend on the processing

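Of 151 genes that the naming rule chose, 146 had changed, 119 of these in every one of the 15 alternatives that tested them, and 27 lost the call in at least 1. These 15 leave out glmTreat, which was tallied for DEGs only and also ended the calls of, for example, HMGCS1 and CXCL8 (adjusted p = 0.169 and 0.0643). Of these genes 2 turned sign, neither of them called: CD36 (−0.091 without Con replicate 3, 1.26 without replicate 1 of both groups) and NR4A1 (0.0095 without FUCO-2 replicate 2, −0.41 without FUCO-2 replicate 1, where it passed the test with an adjusted p of 0.0486). The number of changed genes fell from 3617 to 2211 (1082 higher, 1129 lower) with DESeq2 on the 6 libraries and to 2201 (1141 higher, 1060 lower) with edgeR on the 6 libraries, which estimate the spread from fewer samples. It ran from 2600 to 3838 when 1 library was left out (1381 to 2022 higher, 1219 to 1816 lower), lowest without Con replicate 2. DEGs fell from 461 to 254 (137 higher, 117 lower) with at least 10 counts in every library, which removes genes low in any of the 18 libraries. With glmTreat, which tests the threshold itself, they fell to 78 (39 higher, 39 lower). They numbered 411 to 568 (226 to 321 higher, 171 to 247 lower) with 1 library left out. Without replicate 1 of both groups, a choice made after seeing that these stood apart, there were 3773 changed genes and 535 DEGs. Lower ER genes numbered 6 with edgeR on the 6 libraries and 8 to 12 with 1 library left out, and lower FOXO genes 7 and 7 to 11. Cholesterol genes lower (22 to 24), heat shock genes higher (16 to 20), NRF2 genes higher (19 to 26) and chemokine genes higher (17 to 20) stayed within 1.5 times in these 15 alternatives. Same-numbered Con and FUCO-2 libraries correlated at 0.114, 0.0754 and 0.00948 in their deviations, so the numbers were not taken as pairs, and the replicate block gave 3718 changed genes and 455 DEGs. Depth limits the genes near 0 in Con: for MT1X, MT1E, G0S2 and HSPA6 only a bound or a wide interval can be given.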
